A study of Caenorhabditis elegans with 2 samples.

Results

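The proteasome subunit genes of Caenorhabditis elegans were examined for binding of LSY-2, a zinc finger protein of the C2H2 class that acts in the nucleus and is known for helping to make the left and right ASE neurons differ. Members were all protein-coding genes whose symbols start with pas-, pbs-, rpn- or rpt- in the Ensembl annotation of WBcel235, the assembly also called ce11. This gave 33 genes among 19973 nuclear protein-coding genes, with 14 in the core particle (pas- and pbs-) and 19 in the regulatory particle (rpt- and rpn-). Membership was decided by symbol, and the family was taken up with earlier results of these data known.

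The chromatin came from whole L2 larvae, mixed sex, of strain OP240, which carries unc-119(ed3) on chromosome III and the transgene wgIs240 expressing LSY-2 joined to eGFP. The data form 1 group of 2 biological replicates with no second condition. The sources used here do not state what drives the transgene. Each replicate has a list of 30000 regions in which peaks stand beside background. A thresholded list of 2182 regions passed the authors' criterion on the irreproducible discovery rate, which compares the order of regions between replicates. Its regions were the 2182 of highest signal in the list called on both replicates together. A thresholded region therefore need not rank high in each replicate alone. A gene was counted as having a summit when the position of highest enrichment of a region fell in its promoter window, which reached 1000 bp upstream and 200 bp downstream of the annotated 5′ end. The signal of a region is the value the authors' caller gave it, and it is not scaled between lists. No list gives read counts, and the sequencing depth behind a signal is therefore unknown. In whole larvae, weak binding in many cells and strong binding in few cells cannot be told apart.

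The proteasome degrades proteins that carry ubiquitin chains. Its core particle is a barrel of alpha rings, built from the pas gene products, around beta rings, built from the pbs gene products, which hold the proteolytic sites. The regulatory particle caps the barrel: a ring of ATPases (rpt) unfolds substrates and feeds them in, other base subunits bind ubiquitin, and a lid of further rpn subunits removes the chains. The subunits are needed in fixed proportions. In C. elegans the transcription factor SKN-1, in its SKN-1A form, is known to raise transcription of proteasome genes when proteasome activity falls.

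LSY-2 summits were found at 21 of the 33 proteasome genes (63.6%), against 9.85% of all nuclear protein-coding genes (1968 of 19973). The core particle had a summit at 9 of 14 genes (64.3%) and the regulatory particle at 12 of 19 (63.2%), a difference of 1.13 percentage points. Among the 2182 regions of highest signal in replicate 1 alone, the core particle had 8 of 14 genes with a summit and the regulatory particle 11 of 19, against 9.62% of all genes. In replicate 2 alone the counts were 7 of 14 for the core particle and 9 of 19 for the regulatory particle, again against 9.62% of all genes. The difference between particles averaged 0.940 ± 2.39 percentage points over the replicates (SD, n = 2), so it was smaller than their spread. No test was run on these shares, because genes are not replicates and the group was chosen with earlier results of these data known.

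**Figure D1:**
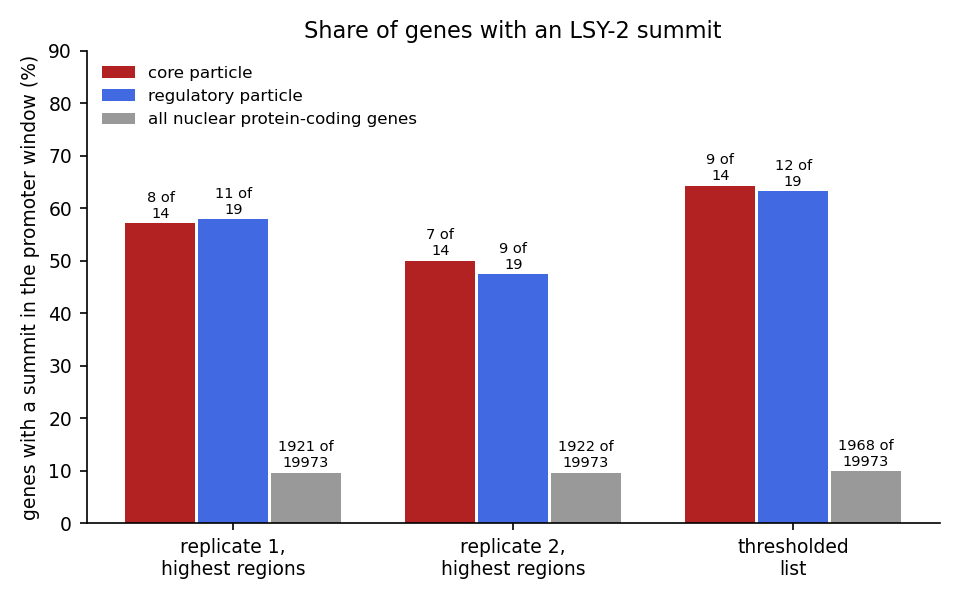
Share of genes with an LSY-2 summit in the promoter window (vertical axis, percent) for the core particle, the regulatory particle and all nuclear protein-coding genes, in the highest 2182 regions of each replicate and in the thresholded list. Both particles stand between 47.4% and 64.3% in every list, and all genes stand at 9.62% to 9.85%.

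The sequence at these summits is shown for 10 members, read along the strand of the proteasome gene over 50 bp to each side of the summit. The first 8 lines hold a match to the core of the SKN-1 motif. The rpn-3 and rpn-5 lines hold none and are the 2 of highest signal among these 10. These lines are not a cross-section of the family, in which 12 of 21 windows held a match. The window of pas-4, the strongest core particle gene, is not shown and held none. Capitals mark GTCAT or ATCAT, the G and A forms of that core, on either strand, so the opposite strand appears as ATGAC or ATGAT. Where matches overlap, the capitals run together. The sequences are from the RefSeq copy of WBcel235, with pas-6 at chrV:5584530-5584630 (minus strand), pbs-1 at chrIV:1709890-1709990 (minus strand), rpt-1 at chrV:11982461-11982561 (minus strand), rpt-2 at chrV:6017767-6017867 (minus strand), rpt-3 at chrIII:6489094-6489194 (plus strand), rpn-2 at chrIII:6198804-6198904 (plus strand), rpn-7 at chrIV:9316176-9316276 (plus strand), rpn-11 at chrII:4044520-4044620 (minus strand), rpn-3 at chrIII:8447114-8447214 (plus strand) and rpn-5 at chrII:4698415-4698515 (minus strand).

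pas-6: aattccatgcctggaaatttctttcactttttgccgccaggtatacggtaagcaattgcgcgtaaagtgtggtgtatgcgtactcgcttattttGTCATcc
pbs-1: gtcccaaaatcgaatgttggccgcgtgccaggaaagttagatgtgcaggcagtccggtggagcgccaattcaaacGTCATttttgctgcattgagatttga
rpt-1: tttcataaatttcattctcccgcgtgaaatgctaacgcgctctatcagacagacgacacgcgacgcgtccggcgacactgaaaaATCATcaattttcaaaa
rpt-2: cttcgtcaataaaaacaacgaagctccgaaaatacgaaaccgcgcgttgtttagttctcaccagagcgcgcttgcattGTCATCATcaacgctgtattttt
rpt-3: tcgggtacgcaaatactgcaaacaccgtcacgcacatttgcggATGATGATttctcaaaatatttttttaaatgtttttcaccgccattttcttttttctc
rpn-2: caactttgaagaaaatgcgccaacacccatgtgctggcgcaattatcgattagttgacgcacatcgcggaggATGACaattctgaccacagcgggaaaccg
rpn-7: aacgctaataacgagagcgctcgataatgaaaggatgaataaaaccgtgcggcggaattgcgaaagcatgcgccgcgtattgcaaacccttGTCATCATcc
rpn-11: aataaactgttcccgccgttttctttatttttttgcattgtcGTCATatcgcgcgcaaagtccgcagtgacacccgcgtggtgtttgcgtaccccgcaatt
rpn-3: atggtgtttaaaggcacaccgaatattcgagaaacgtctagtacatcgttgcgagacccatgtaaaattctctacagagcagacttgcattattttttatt
rpn-5: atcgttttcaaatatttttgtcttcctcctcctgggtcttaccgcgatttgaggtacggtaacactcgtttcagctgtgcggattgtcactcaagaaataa

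Of the 21 windows at proteasome genes, 8 (38.1%) held the G form, GTCAT, on either strand, against 147 of the 1411 windows (10.4%) centred on all thresholded summits in promoter windows. The A form, ATCAT, was in 7 of 21 (33.3%), against 149 of 1411 (10.6%), and either form was in 12 of 21 (57.1%), against 19.6%. Both forms were commoner beside the summits than at them: of 2822 flank windows, equally wide and with their centres 300 bp from the 1411 summits, 367 held the G form, 627 (22.2%) the A form and 904 either form. The members' shares thus stood farther above the summit windows than above these flanks. From the highest regions of replicate 2 alone, without replicate 1, the A form was in 3 of 16 members' windows (18.8%, against 11.4% of all and 21.9% of flanks) and either form in 7 of 16 (43.8%, against 20.2% and 32.2%). From replicate 1 alone the A form was in 6 of 19 (31.6%, against 10.2% of all and 23.1% of flanks). Either form was in 11 of 19 (57.9%, against 19.3% and 32.4%). The core particle held either form in 5 of 9 windows and the regulatory particle in 7 of 12. The G form alone was in 4 of 9 core windows and 4 of 12 regulatory windows. From replicate 2 alone it was in 2 of 7 and 3 of 9, against 10.4% of all summit windows and 13.5% of flanks. In rpt-2 and rpn-7 the 2 forms overlap, and both lines carry the same run of 11 bases, positions 77 to 87 of the rpt-2 line and 90 to 100 of the rpn-7 line. That run was in 3 of the 1411 windows. SKN-1 itself was not assayed here, and a match is a description of the letters.

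Within 50 bp of the summit, 13 of the 18 matches (72.2%) lay on the side of the summit nearer the proteasome gene, against 228 of 447 (51.0%) over all genes with a summit, each read along its own strand. Within 100 bp the numbers were 25 of 32 matches (78.1%), against 532 of 1065. At this distance 19 of the 21 genes (90.5%) held a match of either form, against 557 of the 1411 summit windows (39.5%) and 52.1% of flanks. The 2 without one were pbs-3, in the beta ring, and rpn-9, in the lid. The comparison of sides with all genes is not like for like. Among all genes with a summit, 55.1% shared it with an opposite-strand gene. Read along both strands, a match at such a summit can count once on each side. Of each such pair, only the proteasome gene entered the members' counts. These shares were not tested.

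**Figure D2:**
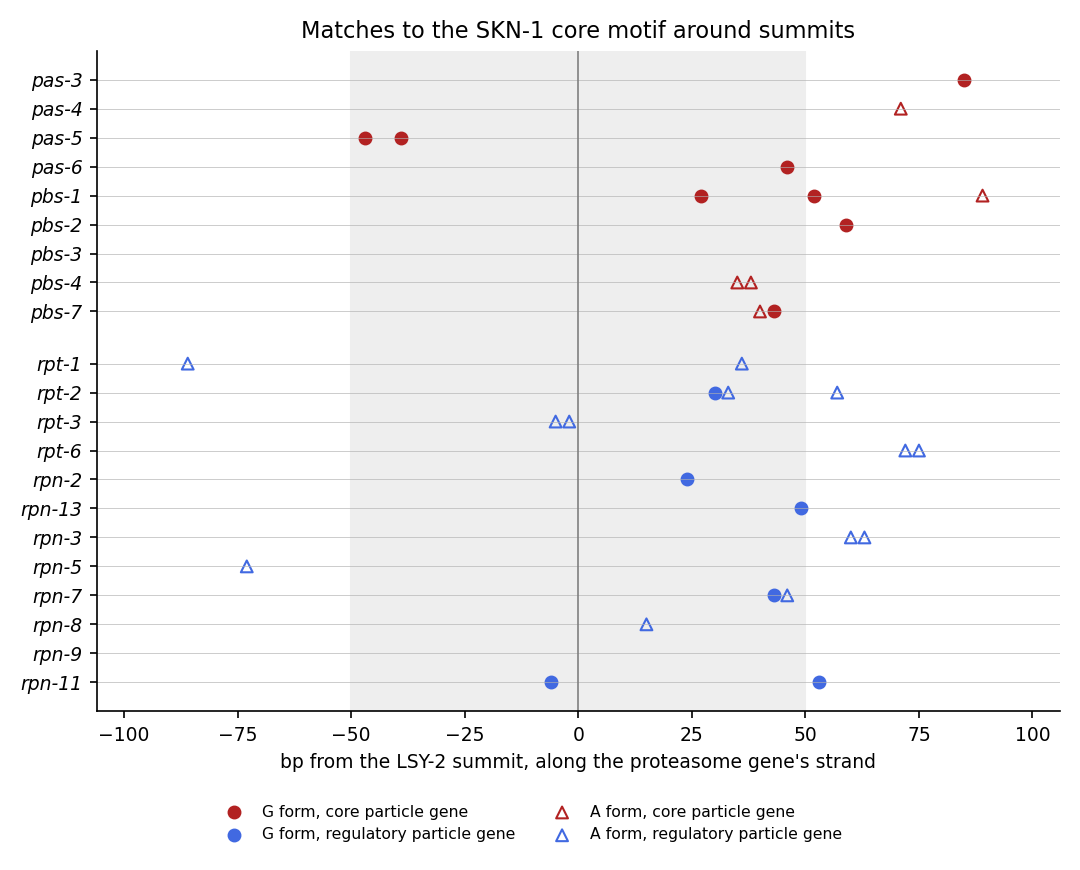
Matches to the SKN-1 core motif around the thresholded summit of each of 21 proteasome genes (rows), placed by distance from the summit in bp along the gene's strand, so that positive values lie toward the gene. Filled circles are the G form and open triangles the A form, grey shading marks 50 bp to each side (the rpn-13 match runs past its edge and was not counted within it), and 25 of the 32 matches lie at positive distances.

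The 5 other motifs searched were held by 0 to 7 of the members' windows. GAGAG, of the GAGA type, was in 501 of the 1411 windows (35.5%) but in 1 of the 21 at proteasome genes (4.76%), that of rpn-7, and in 13.9% of flanks. GGGCGG, of the Sp1 type, was in 1 of 21 windows, against 5.46%, and the T block TTTTTT in 7 of 21, against 26.6%. TGATAA, of the GATA type, and the E-box CACGTG were in 0 of 21 windows, against 2.48% and 2.62%. All motifs were searched on both strands, and both SKN-1 core forms can overlap each other. The median GC content was 43.6% at proteasome genes and 46.5% over all 1411 windows. Its part in these shares was not tested.

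In the promoter stretch itself the forms differed when set beside all genes. The G form was above its share in all genes at members with and without a summit, and the A form was near its own. From 250 bp before to 50 bp after the 5′ end, the G form occurred at 13 of 21 members with a summit (61.9%) and at 7 of 12 members without one (58.3%). Over all genes with a summit the share was 32.5%, and over all nuclear protein-coding genes it was 39.6%. The A form occurred at 19 of 33 members (57.6%, against 55.8% of all genes), 13 of 21 with a summit and 6 of 12 without. Over all genes with a summit its share was 45.2%, so at members with a summit (61.9%) both forms were above that comparison. In the same stretch GAGAG was at 14 of 33 members (42.4%), against 7996 of 19973 genes in all. Among members with a summit it was at 8 of 21 (38.1%), against 45.5% of all genes with a summit. The shortfall of GAGAG at members was thus far wider around the summits than in this stretch.

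In the core particle, the alpha ring gene pas-4 had by far the strongest region. Its signal was 375 in replicate 1 and 254 in replicate 2, ranks 77 and 82, and 631 in the thresholded list (rank 80). The summit lay 143 bp upstream of pas-4 and 134 bp upstream of rpb-3, an RNA polymerase II subunit gene on the other strand, so the region belongs to both. The next in the alpha ring, pas-6, had signals of 144 and 114 (ranks 278 and 240) and a summit 237 bp upstream of its 5′ end. Both genes ranked within the upper 300 regions of each replicate.

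The other 2 alpha ring genes with a thresholded summit were near the bottom of the list and their replicates differed. At pas-3 the signal was 24.1 in replicate 1, from a summit 351 bp upstream, and 27.5 in replicate 2, from a summit 135 bp upstream. The thresholded summit (signal 52.5) lay 198 bp upstream of pas-3 and inside an exon of its neighbour use-1, 42 bp from the 5′ end of that gene. At pas-5 the signal was 50.3 in replicate 1, 916 bp upstream of the 5′ end, and 13.7 in replicate 2 at another place, 73 bp downstream of it. The thresholded summit at pas-5 (signal 57.5) was 922 bp upstream and within 200 bp of the snoRNA gene F25H2.15.

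The beta ring had summits at 5 of 7 genes. They were led by pbs-4, at 85.7 and 69.8 in replicates 1 and 2 (162 in the thresholded list), and by pbs-1, at 66.9 and 58.0 (128). The signal was 46.1 and 42.0 at pbs-7 (87.9 in the thresholded list) and it ranked 1873 and 1882 at pbs-3 (57.3 in the thresholded list). At pbs-2 it was 53.2 in replicate 1 but 20.4 in replicate 2, where the region ranked 2257, just outside the highest 2182. The summit of pbs-2 lay 316 bp from eif-6, a gene of ribosome assembly, and 350 bp from pbs-2 itself. In the beta ring all 5 summits thus lay within 350 bp of the proteasome gene, and none exceeded 162 in signal.

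In the regulatory particle the lid held 3 of the 4 strongest regions among the 33 genes. The gene rpn-5, the strongest, which encodes a scaffold subunit of the lid, had a signal of 514 in replicate 1 and 438 in replicate 2, ranks 48 and 40, and 952 in the thresholded list (rank 43). Its summit was 38 bp upstream of rpn-5 and 256 bp upstream of scc-1, a cohesin subunit gene. The lid gene rpn-3 had 250 and 178 (424 in the thresholded list), with a summit between rpn-3 and the chaperone gene hsp-110, which start 443 bp apart. The signal was 196 and 129 (325) at rpn-11, whose product is the deubiquitinase of the lid, with the summit 24 bp upstream. These 3 genes, with pas-4, made up the 4 strongest of the 33 in both replicates.

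The remaining lid genes with a summit were weaker. The signal was 64.8 and 53.6 at rpn-9 (121 in the thresholded list). At rpn-8, the partner of rpn-11, it was 30.2 and 14.8 (46.5), and the region ranked 3924 in replicate 2. At rpn-7 it was 24.4 and 18.8 (46.9), outside the highest 2182 regions in each replicate. The rpn-7 summit lay 11 bp from the 5′ end of F49C12.9 and 405 bp from that of rpn-7. The lowest signal in the thresholded list was 45.8, so rpn-7 and rpn-8 were the members just inside it, and rpn-12, at 45.2 in the joint list (rank 2224), was the member just outside it.

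In the ATPase ring, 4 of 6 genes had a summit, with signals in the thresholded list between 66.7 and 126. The signal in replicates 1 and 2 was 63.2 and 35.6 at rpt-6 and 54.5 and 39.1 at rpt-2, and rpt-3 was the strongest of the ring, at ranks 638 and 734. At rpt-1 it was 49.1 and 18.9, and the replicate 2 region ranked 2565. The rpt-3 summit lay 649 bp upstream, inside an exon of the gene before it, chtb-2. In the rest of the base, the ubiquitin receptor gene rpn-13 had 123 and 105 (225 in the thresholded list), and the scaffold gene rpn-2 had 90.7 and 55.3 (147). Both base summits lay about as far upstream, at 332 and 330 bp.

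**Figure D3:**
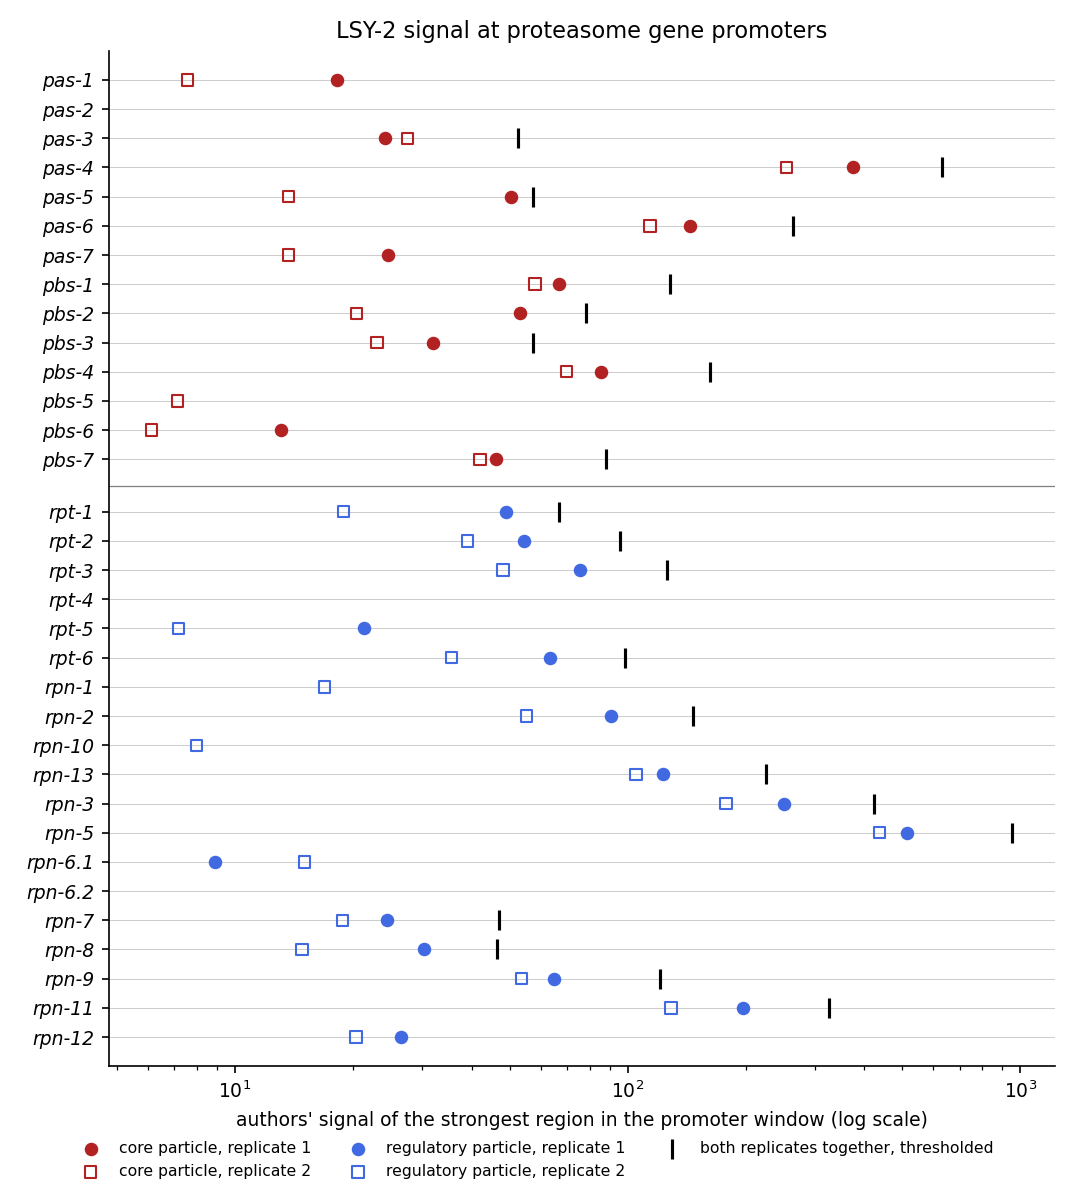
Authors' signal of the strongest region in the promoter window of each proteasome gene (horizontal axis, log scale), with filled circles for replicate 1, open squares for replicate 2 and black bars for the thresholded list. The core particle is above and the regulatory particle below, rpn-5 and pas-4 lie farthest right, and 12 genes have no black bar.

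Of the 12 genes without a thresholded summit, 5 were in the core particle (pas-1, pas-2, pas-7, pbs-5 and pbs-6) and 7 in the regulatory particle (rpt-4, rpt-5, rpn-1, rpn-6.1, rpn-6.2, rpn-10 and rpn-12). No region was listed in either replicate in the windows of pas-2, rpt-4 and rpn-6.2. The gene pbs-5, whose yeast and mammalian counterpart carries the chymotrypsin-like activity, had no region in replicate 1 and 1 of signal 7.14 in replicate 2, near the lowest listed signal of 6.11. The ubiquitin receptor gene rpn-10 had none in replicate 1 and 7.97 in replicate 2. The rpn-12 window held a region in both replicates, at 26.4 and 20.3 (ranks 2351 and 2261), and it shared this region with rad-23, which encodes a shuttle protein that brings ubiquitin-bearing substrates to the proteasome. At pas-7 the values were 24.5 and 13.7, at rpt-5 21.3 and 7.17, at pas-1 18.2 and 7.57, and at pbs-6 13.1 and 6.13. At rpn-6.1 they were 8.88 and 15.0, and rpn-1 was listed in replicate 2 alone, at 16.9.

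For 2 of these genes a thresholded region lay just outside the window. At rpn-6.1 a region of signal 262 (rank 255) had its summit 433 bp upstream of the start of another annotated transcript of the gene, and 628 bp downstream of the outermost 5′ end. At pbs-5 a region of signal 98.7 (rank 891) had its summit 1146 bp upstream, beyond the 1000 bp limit. In all, 27 of 33 members had some listed region in replicate 1 (81.8%, against 38.3% of all genes) and 30 of 33 in replicate 2 (90.9%, against 39.7%). These lists include background.

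The signal at members with a summit was near that of other genes with a summit. The median was 121 over the 21 members and 99.8 over all 1968 genes. In replicate 1 the medians were 66.9 over 19 members and 59.9 over all 1921 genes, and in replicate 2 they were 56.6 over 16 members and 43.2 over all 1922 genes. Within the proteasome the median was 87.9 for the core particle and 124 for the regulatory particle, a ratio of 0.710. In replicate 1 the ratio was 0.797 (medians of 60.1 and 75.4), and in replicate 2 it was 1.05 (58.0 and 55.3). The mean of the replicates was 0.923 ± 0.179 (SD, n = 2). These replicate values rest on different genes, 19 in replicate 1 and 16 in replicate 2. Over the same 21 genes the core median was the lower in both, with a ratio of 0.759 in replicate 1 (53.2 and 70.1) and 0.827 in replicate 2 (42.0 and 50.8). The direction of the ratio thus depended on which genes entered it, and no test was run.

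The replicates gave the strong members nearly the same order and parted at the weak ones. Of the 21 genes with a thresholded summit, 15 (71.4%) were among the highest 2182 regions of both replicates, against 1609 of all 1968 genes (81.8%). The 6 others were pas-3, pas-5, pbs-2, rpt-1, rpn-7 and rpn-8. The core particle had 6 of 9 in both replicates and the regulatory particle 9 of 12. The signal of the 21 genes was a median 1.39 times higher in replicate 1 than in replicate 2, as it was over all genes with a summit (1.41 times). The log2 ratio of replicate 1 over replicate 2 had an SD of 0.49 across the members, with pas-5 highest at 1.88 and pas-3 lowest at -0.19. At both of these genes the strongest regions of the replicates lay at different places in the window, so the ratio does not compare 1 site. For 16 of the 21 the ratio lay within 0.5 of the median of all genes. Those outside were pas-3, pas-5, pbs-2, rpt-1 and rpn-8, 5 of the 6 genes named above. This overlap is partly built in, because both groupings use the same replicate signals.

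**Figure D4:**
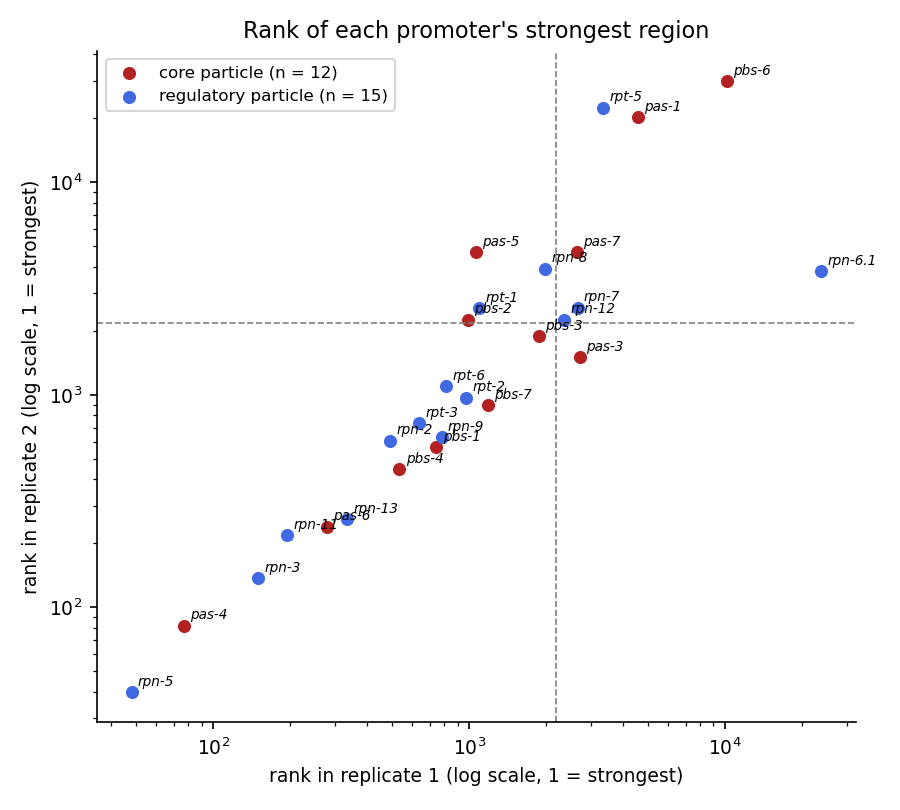
Rank of the strongest region in each proteasome gene's promoter window in replicate 1 (horizontal axis) and replicate 2 (vertical axis), both on log scales, for the 27 genes listed in both; dashed lines mark rank 2182. The 15 genes below and left of both lines lie near the diagonal, and the 12 others scatter more widely.

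Summits lay close upstream of the proteasome genes and often between 2 genes that point away from each other. Both traits stood near their values over all genes with a summit. All 21 were upstream of the 5′ end, at a median of 198 bp (195 bp in the core particle, 238 bp in the regulatory particle), against 225 bp for all genes with a summit. Of those 1968 genes, 66 had the summit downstream. Of the 21, 19 were within 500 bp (90.5%, against 82.7%), and pas-5 and rpt-3 were the exceptions. A gene on the opposite strand shared the summit in 13 of 21 cases (61.9%, against 55.1%), 6 of 9 in the core particle and 7 of 12 in the regulatory particle. These partners were use-1, rpb-3, CD4.11, K08D12.3, eif-6, F39H11.1, aps-1, C23G10.7, hsp-110, scc-1, F49C12.9, mrps-6 and T06D8.9. The nearest 5′ end was that of the proteasome gene itself in 6 of 9 core cases (66.7%) and 11 of 12 regulatory cases (91.7%). Over all genes with a summit the share was 69.2%, near that of the core particle. When each summit was given only to the nearest 5′ end, 6 of 14 core genes and 12 of 19 regulatory genes had one, a difference of -20.3 percentage points, because pas-3, pas-4 and pbs-2 lost theirs to neighbours. On the regulatory side rpn-7 was lost and rpn-6.1 gained.

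**Figure D5:**
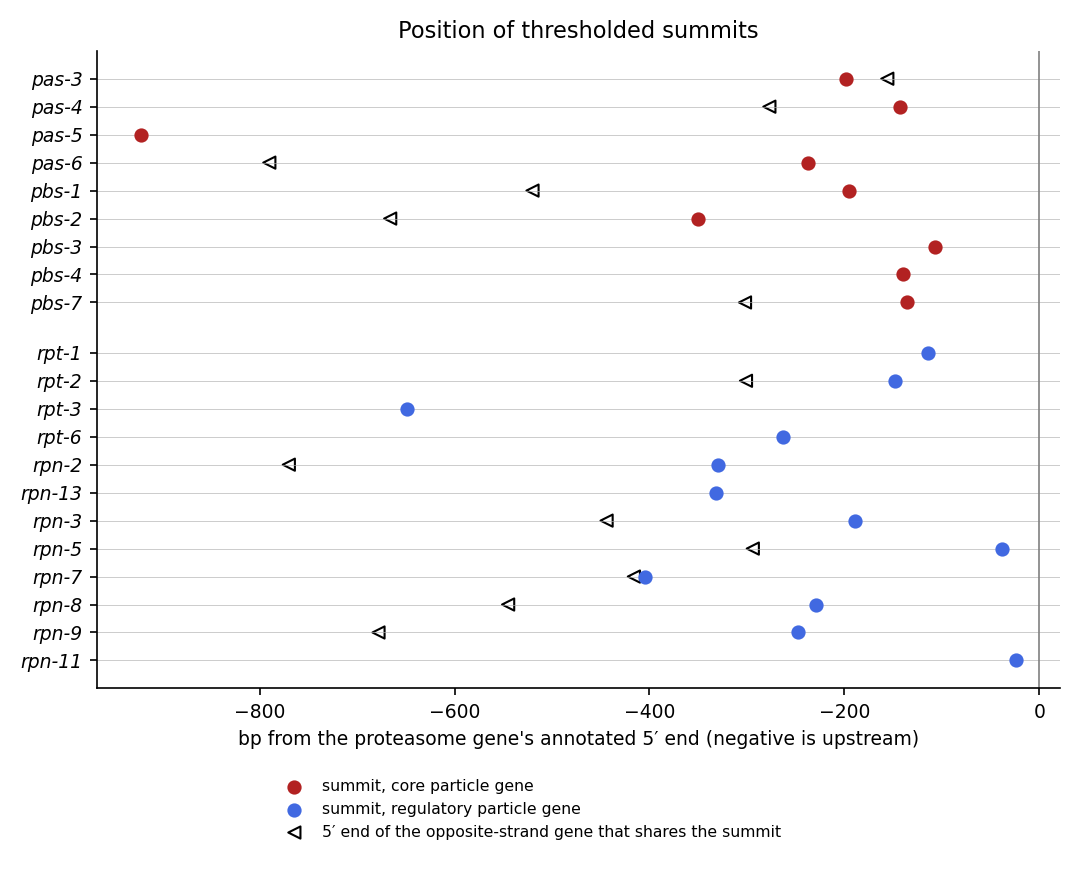
Distance in bp of each thresholded summit (filled circles) from the annotated 5′ end of its proteasome gene, with open triangles at the 5′ end of the opposite-strand gene that shares the summit. All 21 summits lie left of 0, and in 12 of the 13 shared cases the summit lies between the 2 ends, with pas-3 the exception.

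Paired layouts were common in the family as a whole. The nearest gene upstream was on the opposite strand and within 1000 bp for 20 of 33 members (60.6%), against 17.2% of all genes. Within this layout 13 of 20 members had a summit, against 28.2% of all genes so placed. Where the upstream gene was on the same strand and within 500 bp, a layout that includes genes inside operons, 4 of 8 members had a summit (pbs-3, rpt-3, rpn-11 and rpn-13), against 7.01% of all genes so placed. The 4 without were pas-1, pbs-5, rpn-6.2 and rpn-10. No member was on the X chromosome. Summits were at 7 of 10 members on chromosome I, 4 of 7 on II, 5 of 8 on III, 2 of 3 on IV and 3 of 5 on V, and the share of all genes with one lay between 5.61% (V) and 16.4% (III) on these chromosomes.

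A search for the longest exact run of bases shared by each of the 210 pairs of member windows, made after the sequences had been seen, found a median of 7 bases and 3 pairs with 14 or more. The summit windows of pas-4 and pbs-2 shared 17 bases, a run present in 5 of the 1411 windows. Those of pas-4 and rpn-5, the strongest member of each particle, shared 14, at positions 54 to 67 of the rpn-5 line above, a run present in 8 of the 1411. Those of pbs-4 and rpn-3 shared 14, at positions 14 to 27 of the rpn-3 line, a run present in 2 of the 1411, which are these windows themselves.

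Genes that work with the proteasome had summits in part. Of 17 genes for ubiquitin and proteasome partners, 7 had one (41.2%, median signal 92.1, against 9.85% and 99.8 for all genes). The strongest were ubq-2, a fusion of ubiquitin with a ribosomal protein, at 1250 in replicate 1 and 818 in replicate 2, and cdc-48.1, an ATPase that extracts ubiquitin-bearing proteins, at 656 and 396. The shuttle protein gene ubql-1 had 198 and 158. The proteasome-bound deubiquitinase genes ubh-4 and usp-14 had 51.7 and 40.7, and 57.2 and 20.2. The ubiquitin ligase gene ufd-2 had 33.3 and 28.1, and aip-1, known in C. elegans for arsenite-induced protein stress, had 28.6 and 38.1. Neighbours shared the summits of ubq-2 (frg-1), ubql-1 (pdi-3), usp-14 (vnut-1), ubh-4 (algn-6) and aip-1 (ddx-17), but not those of cdc-48.1 and ufd-2. The summits of ubq-2 and ubql-1 lay 484 and 512 bp upstream. Genes without a summit included ubq-1, uba-1, rad-23, dss-1 and cdc-48.2. Among 5 genes of the SKN-1A pathway, sel-1 alone had a thresholded summit, with 33.8 in replicate 1 and 8.13 in replicate 2. The windows of skn-1, ddi-1, png-1 and sel-11 held none. The COP9 signalosome, whose subunits are related to the lid, had a summit at 1 of 6 genes, csn-1, with 29.0 and 31.0. The csn-1 summit was shared with phf-14.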

How the data were processed

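Chromatin immunoprecipitation followed by sequencing of eGFP-LSY-2 was analysed for 2 biological replicates, numbered as in the labels. The deposited region lists hold the caller's signal value for each region. Per the deposited lists of files, regions were called on alignments to ce11 against a control alignment, for each replicate and for both together, and then thresholded by IDR. The sources used here do not name the aligner or caller, or the way the control entered the signal. The lists on ce10 were not used here, because no annotation of that build was at hand. The 2182 thresholded regions were the 2182 of highest signal in the joint list.

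Summits were assigned to every protein-coding gene whose window held them, so neighbours can share 1. A gene's value is its strongest region. A replicate's own list was cut at its 2182 highest regions. The scale between replicates was not matched. Shares, medians, ranks, distances and motif counts are descriptions; no test was run. The named genes are all 33 members, the genes sharing their thresholded summits and the pathway lists. Members, lists and motifs were chosen with earlier results of these data known, and shared runs after the sequences were seen. Alternatives were other windows, transcript starts, assignments and list lengths, and each replicate alone. The assignment was tested on simulated data, where 200 of 200 planted genes and 0 of 400 decoys were found. Python 3.11.15, numpy 2.4.6 and pandas 2.3.3 were used.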

Additional observations from a re-analysis of the deposited data

How the results depend on the processing

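Among the 33 genes, the regulatory particle's count with a summit stayed within 1.5 times its value of 12 under all alternatives. The core particle's count stayed within 1.5 times its value of 9 except in the upper 50% of thresholded regions. There it was 5, and the regulatory count was 9. The difference in share between particles, 1.13 percentage points, was 8.27 with a window reaching 1500 bp upstream and also with any overlap of region and window, -4.14 with the 5′ end of any transcript, -20.3 with the nearest 5′ end only, -11.7 in the upper 50% of regions and 10.2 in the joint list with as many regions again. From single replicates it was -0.752 to 2.63. The ratio of median signals, 0.710, was 0.892 with a window of 500 bp upstream and 100 bp downstream, 1.10 in the upper 50% of regions and 0.797 to 1.05 from single replicates. The motif alternatives were added after the data were seen. Within 100 bp of the summit, the share of members' windows with GTCAT, 38.1%, was 52.4% (20.6% over all 1411 windows). From single replicates it was 31.2% to 36.8% (10.4% to 10.5% over all, 12.7% to 13.5% of flanks). The share with GAGAG, 4.76%, was 14.3% within 100 bp (48.7% over all). From single replicates it was 0% to 6.25% (34.5% to 34.6% over all, 13.8% to 14.3% of flanks). The causes were not tested. Depth is unknown, and 33 genes with 2 replicates limit what small differences between particles can show.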
